A study of Mus musculus with 42 samples.

Results

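Csn2, the gene of beta-casein, was used to divide 16 mouse mammary tumours into 8 casein-high and 8 casein-low tumours. The tumours are those other than 644, 646, 647, 649 and 673, which were left out. They were ranked by the mean of Csn2 over the 2 arrays of each tumour, and the upper 8 were set against the lower 8. This takes 32 arrays of 16 tumours, out of 42 arrays of 21 tumours in the series. Csn2 chose the groups, so its own values are a description, and all other genes were then compared between the groups.

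All tumours, in both groups, descended from neoplasms of FVB/N-Tg(WapMyc)212Bri mice, which carry a c-Myc transgene under the promoter of the milk protein gene Wap. That promoter is most active in secretory mammary epithelium, which limits the model to tumours that arose from cells able to use it. By passage through mice these had been selected into glandular tumours, solid or comedo tumours that did or did not spread to the lung, and tumours of spindle cells. The labels name each tumour by a number and not by its line, and they give no treatment, host or age, so these cannot be told apart from the casein groups. Each array paired tumour RNA with a universal mouse reference RNA, and the 2 arrays of a tumour are a dye swap and count as 1 value. Whether tumours came from separate animals is not given in the sources used here, so p-values measure the spread between the means of these tumours. That spread includes the error of the arrays. In bulk tissue, fewer cells of a type and less RNA per cell cannot be told apart.

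Values are log2 ratios after subtraction of each array's median, with a positive sign taken as tumour over reference. The labels do not say which dye carried the tumour, so an array was turned where its Krt8, Hba-a1 and Dbi probes averaged below 0. That choice makes these 3 genes positive and is no evidence for the direction. If all signs were turned, every level below would change sign, and the casein-high and casein-low groups would change places. The sign of a difference relative to Csn2 would stay as it is.

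Caseins are the main proteins of milk, made in the secretory epithelium of the breast under prolactin, which acts through its receptor, the kinase Jak2 and the transcription factor Stat5. Stat5 binds a palindrome with the outer letters TTC and GAA, and the transcription factors Elf5 and the glucocorticoid receptor, encoded by Nr3c1, also act on milk genes. In the normal gland caseins, whey proteins and the enzymes of milk fat come on together in pregnancy and lactation, so the question here is which of these genes followed Csn2 from tumour to tumour.

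Promoters of 3 milk protein genes are shown because the genes had different patterns over the tumours: Csn2 set the groups, Csn1s1 had higher means where Csn2 was high, and Wap had not. Each is the run of 250 bases before the gene's start, from RefSeq on GRCm38.p6, 5′ to 3′ on the gene's strand, with matches to the motif TTCNNNGAA in capitals. The motif was searched on both strands, where the same letters are found since it is a palindrome. Csn1s1 lies at chr5:87665958-87666207 on the plus strand, Csn2 at chr5:87699426-87699675 on the minus strand and Wap at chr11:6638650-6638899 on the minus strand.
Csn1s1: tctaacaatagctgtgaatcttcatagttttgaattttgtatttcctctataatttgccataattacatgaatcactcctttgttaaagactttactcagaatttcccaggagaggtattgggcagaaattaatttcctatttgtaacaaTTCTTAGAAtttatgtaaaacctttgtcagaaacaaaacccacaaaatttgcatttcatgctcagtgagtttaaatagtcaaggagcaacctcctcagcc
Csn2: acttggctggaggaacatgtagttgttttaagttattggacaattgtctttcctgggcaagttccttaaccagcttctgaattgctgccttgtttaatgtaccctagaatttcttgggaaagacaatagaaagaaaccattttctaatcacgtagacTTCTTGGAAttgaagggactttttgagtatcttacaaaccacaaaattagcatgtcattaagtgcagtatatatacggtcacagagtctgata
Wap: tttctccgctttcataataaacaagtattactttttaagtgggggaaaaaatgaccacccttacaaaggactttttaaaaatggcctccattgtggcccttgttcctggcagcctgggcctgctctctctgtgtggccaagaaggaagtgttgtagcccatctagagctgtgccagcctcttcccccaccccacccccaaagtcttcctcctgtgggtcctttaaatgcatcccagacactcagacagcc
Csn1s1 had 1 match, TTCTTAGAA, which began 100 bases before the start, and Csn2 had 1 match, TTCTTGGAA, which began 93 bases before the start. Wap had no match in this window, and neither had Mfge8, whose mean was also higher where Csn2 was high, nor Ltf, Lalba and Csn1s2a. Csn3 and Csn1s2b had no promoter sequence in the source used and were not searched. Of 32851 mouse promoters of the same length, 2306 held the motif, or 7.02%. A match describes letters and is no evidence of a site in use.

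Csn2 ran from 3.91 to 7.43 in the casein-high tumours and from -0.13 to 3.68 in the casein-low tumours. In falling order, the casein-high tumours had 7.43 (tumour 663), 7.35 (641), 7.05 (660), 5.31 (638), 5.07 (664), 5.01 (662), 4.95 (640) and 3.91 (655). The casein-low tumours had 3.68 (665), 3.41 (653), 2.00 (670), 1.30 (643), 1.27 (667), 1.07 (639), 0.89 (669) and -0.13 (656). The order is continuous at the division. Tumours 655, just inside the upper group, and 665, just outside it, differ by 0.23, while the widest gap, 1.75, lies between tumours 660 and 638, within the casein-high group. The 2 arrays of tumour 655 gave 3.04 and 4.78, and those of 665 gave 3.15 and 4.21, so the arrays overlap across the division. The 2 arrays of tumour 667 were 2.62 apart, the widest gap between arrays of a tumour. In the 5 tumours left out, Csn2 ran from -1.12 to -0.02, so the lowest casein-low tumour is within their range.

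**Figure D1:**
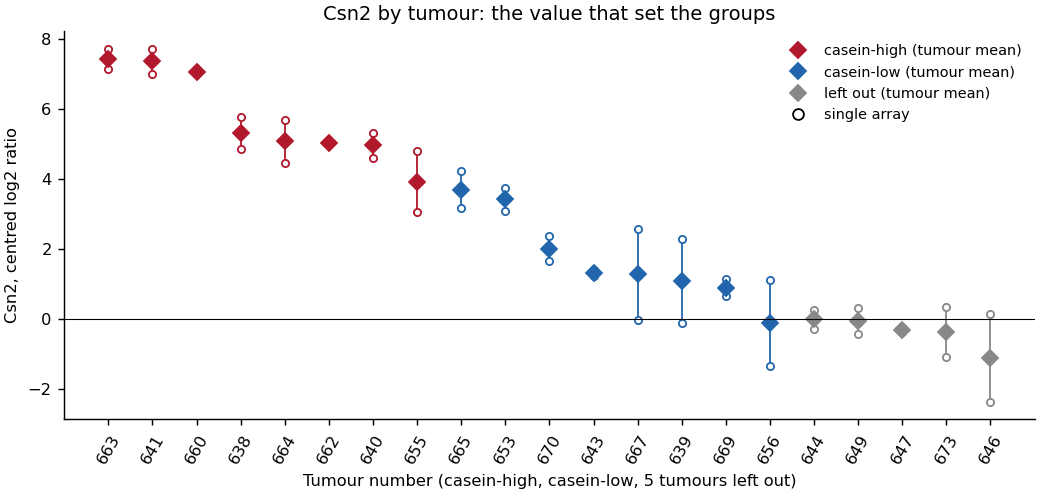
Csn2 as centred log2 ratio (y axis) for each tumour (x axis); diamonds are tumour means, open circles the single arrays (hidden by the diamond where the 2 lie close), red casein-high, blue casein-low and grey the 5 tumours left out. Tumours 655 (3.91) and 665 (3.68) sit on either side of the division with a small step between them.

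Markers of epithelium set the 16 tumours apart from the 5 left out only in part. Epcam, an adhesion molecule of epithelial cells, ran from 1.31 to 3.54 in the 16 and from -2.62 to -0.06 in the 5. Over the 17 epithelial genes measured other than Krt8, the median by tumour was 0.54 to 2.86 in the 16 and -0.41 to 0.75 in the 5, so these ranges overlap. Vim, the mesenchymal filament vimentin, ran from -4.81 to -3.15 in the 16 and from 0.26 to 1.23 in the 5. Krt18, a keratin of simple epithelium, had a median of 0.63 in the 16 and of -0.96 in the 5, with casein-low tumour 656 apart at -2.95. Its partner Krt8, which set the signs, was at 0.77 to 2.48 in the 16 and at 2.28 to 3.01 in the 5. The name epithelial thus rests on Epcam, Vim, Krt18 in most tumours and the medians of the lists and not on Krt8.

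Depth and agreement of arrays were uneven. An array gave 8600 to 20900 measured probes, and the 2 arrays of a tumour averaged 15954 probes ± 2640 (SD, n = 8) in the casein-high and 17611 ± 1693 in the casein-low tumours (exact permutation test, two-sided, p = 0.1601, 0.471 adjusted over 3 such measures). The 2 arrays of tumour 656 correlated at -0.0743 over probes after turning, so its means join arrays that did not agree, and it is the lowest casein-low tumour. Agreement was also low in casein-low tumour 639 (0.0584) and in casein-high tumour 660 (0.0646), the third highest in Csn2, which holds the array of 8600 probes. It was weak in most other tumours too. The median correlation was 0.23 in the casein-high and 0.25 in the casein-low tumours, the highest was 0.565, and tumour 663, the highest in Csn2, had 0.156. Before turning, arrays of different tumours that shared a sign correlated at a median of 0.36, with the lowest at -0.16. In a limma fit with arrays as the unit, the consensus correlation of the 2 arrays of a tumour was 0.0112. The number of arrays limits the precision of every value. Slides fall into 3 runs by their title numbers, which the labels do not call a batch. Run 1 holds tumours 638, 640 and 639, run 2 tumours 655, 662, 663, 653 and 656, and run 3 tumours 641, 643, 667, 669 and 670, with 1 array each of 660, 664 and 665 in runs 2 and 3.

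No gene passed the test between casein-high and casein-low tumours, in which Csn2 took no part. By limma on the 16 tumour means, 0 of 16508 features had an adjusted p of 0.05 or less (0%), and the lowest adjusted p was 0.519. At an unadjusted p under 0.05 there were 1441 features (8.73%), of which 712 were higher (4.31%) and 729 lower (4.42%) in casein-high tumours. An exact Wilcoxon rank-sum test also called 0, with 1559 at an unadjusted p under 0.05. Simulated data over 16508 features took the missing values and residual spread of this comparison. Their noise was drawn separately for each feature, so errors that features of an array share had no part. In these data limma found 4 of 50 features shifted by 1 on the log2 scale, 19 of 50 shifted by 2, 34 of 50 shifted by 3 and 44 of 50 shifted by 4. Shifts of 2 or less were mostly missed, and the values that follow describe genes that did not pass.

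Among milk genes, Csn1s1 and Mfge8 were the 2 with an unadjusted p under 0.05, both with higher means in casein-high tumours, while Csn3 and Wap were spread over both groups. Of 13 tested genes of milk proteins and the milk fat globule, 10 had a higher mean (76.9%) and 3 a lower mean in casein-high tumours. Over all features 51.0% were higher, and 4.31% were higher at an unadjusted p under 0.05. On all 32 arrays, where 5 of the 13 were measured, 71.6% of features were higher. The median difference of the 13 was 0.19, beside 0.01 over all features, and none of the 13 passed. Without tumour 638 the median was -0.03, and without centring -0.31.

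Csn1s1, the gene of alpha-S1-casein, lies beside Csn2 on chromosome 5. It had 5.82 in tumour 641, 5.40 in 660, 2.90 in 638, 5.52 in 664, 3.04 in 662, 3.74 in 640 and 2.95 in 655, with no value in 663. The casein-low tumours had 4.37 in 665, 3.95 in 653, 0.98 in 670, 1.19 in 643, 0.54 in 667, -1.35 in 639, -0.24 in 669 and 2.41 in 656. Of the low tumours, 6 lay below all high tumours, and 665 and 653, the 2 with the next highest Csn2, lay among them. The difference was 2.71 (SE 0.82, n = 7 and 8, limma adjusted p = 0.572). It was 4.68 within run 1, 0.04 within run 2 and 4.41 within run 3. Csn1s1 had a value on 22 of 32 arrays.

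Mfge8 encodes lactadherin, a protein of the milk fat globule membrane, and was measured on all 32 arrays. It ran from 1.00 (tumour 640) to 2.21 (638), median 1.81, in the casein-high tumours and from -1.01 (669) to 1.85 (653), median 0.87, in the casein-low tumours. The groups overlap, with 4 low tumours below all high ones. The difference was 1.01 (SE 0.36, n = 8 and 8, limma adjusted p = 0.572), and within the runs it was 1.52, 0.64 and 1.10. Without centring it was 0.51.

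Plin2, which coats lipid droplets, ran from 1.39 to 2.45, median 2.08, in the high and from 0.46 to 2.52, median 1.48, in the low tumours, a difference of 0.58 (SE 0.32). Its 2 highest casein-low tumours were again 653 and 665. Xdh, the xanthine oxidoreductase of the fat globule, differed by 0.37 (SE 0.25). Without centring these differences were 0.08 and -0.12. Muc1 differed by 0.19 (SE 0.25), and Btn1a1, butyrophilin of the fat globule, by 0.05 (SE 0.54).

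Csn3, Wap and Ltf had a different order over the tumours from Csn2. Csn3, the gene of kappa-casein, ran from 2.90 to 9.07, median 4.14, in the high and from 1.37 to 7.56, median 3.75, in the low tumours. Its highest values were 9.07 in tumour 638, 7.56 in 656 and 6.52 in 643, and the last 2 are casein-low. The difference was 0.41 (SE 0.95).

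Wap, the whey acidic protein whose promoter drives the transgene, was at 0.56 in tumour 663, 3.61 in 641, 1.81 in 660, 7.06 in 638, 2.15 in 664, 3.22 in 662, 3.55 in 640 and 4.43 in 655. In the casein-low tumours it was at 3.42 in 665, 3.38 in 653, 1.50 in 670, 8.11 in 643, 7.37 in 667, 3.59 in 639 and 6.22 in 669, with no value in 656. Its highest values were in casein-low tumours 643 and 667, and its lowest was in the tumour with the highest Csn2. The difference was -1.50 (SE 1.04, n = 8 and 7, limma adjusted p = 0.644), with 1.72, -1.06 and -2.26 within the runs. Ltf, the iron-binding lactoferrin, was highest in the same 2 tumours, at 7.13 and 8.40, and lowest at -3.74 in tumour 663, a difference of -1.54 (SE 1.45).

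Glycam1, Csn1s2b, Wfdc18 and Cidea differed by 0.00 to 0.28 in size, with SE of 0.67 to 0.88. Csn1s2a, Lalba and Cel had too few values to be tested. Lalba, the alpha-lactalbumin of lactose synthesis, had values in 9 tumours, up to 9.13 in tumour 640 and 6.69 in 641 among the high and 4.19 in 669 among the low. Csn1s2a had 7.71 in tumour 641 and 2.71 or less in the other 9 tumours with a value.

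**Figure D2:**
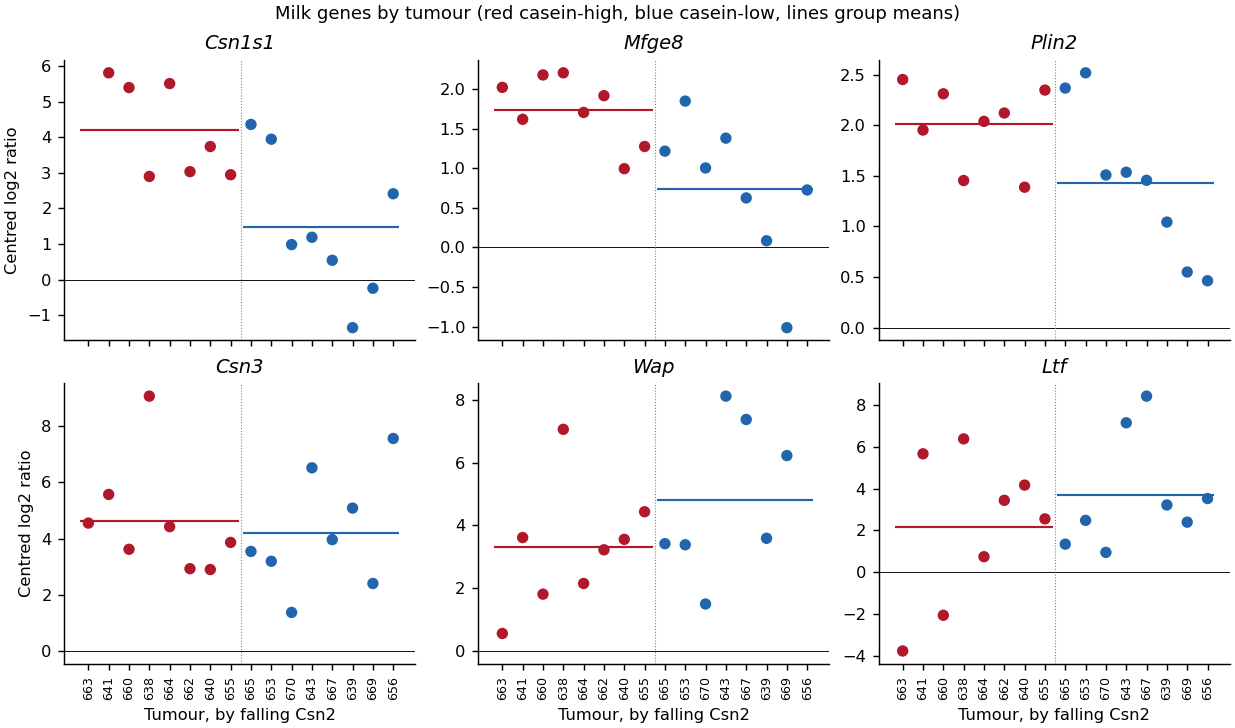
Centred log2 ratio (y axis) of 6 milk genes in each of 16 tumours (x axis, by falling Csn2); red points are casein-high, blue casein-low and lines are group means. Csn1s1 and Mfge8 have higher group means in casein-high tumours (4.20 against 1.48, and 1.74 against 0.74), while Wap has its 2 highest values, 8.11 and 7.37, in casein-low tumours 643 and 667.

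No gene of lactogenic signalling passed, and most had lower means in casein-high tumours, as had most features measured about as completely. Of 17 tested, 5 had a higher (29.4%) and 12 a lower mean, with a median difference of -0.19, and 0 had an unadjusted p under 0.05. These genes had a value on a median of 27 arrays. Of all features on 25 to 28 arrays, 37.2% were higher, with a median difference of -0.20. The list also holds feedback inhibitors, so the counts give no direction of signalling. Stat5a, which carries the prolactin signal to casein promoters, differed by -0.79 (SE 0.55). It ran from -1.81 to 1.67, median -0.20, in the high and from -0.66 to 2.89, median 0.49, in the low tumours. Jak2, the kinase of the prolactin receptor, differed by -0.42 (SE 0.35).

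Elf5, a transcription factor of secretory alveolar cells, ran from 1.78 to 4.76, median 4.35, in the high and from 3.03 to 5.94, median 4.74, in the low tumours, a difference of -0.65 (SE 0.56). Of the tumours left out, 2 had a value, 0.37 in 646 and 2.45 in 673. Tnfsf11, the RANK ligand of alveolar growth, differed by -1.21 (SE 0.86). Insr, the insulin receptor, had the largest positive difference of the list, 0.81 (SE 0.68). Nr3c1 differed by 0.13 (SE 0.26), with 2 probes of opposite sign at -0.05 and 0.32. The feedback inhibitors of cytokine signalling Socs2 and Socs3 differed by -0.58 (SE 0.86) and -0.19 (SE 0.29), and Cish by -0.16 (SE 0.87). The other tested genes of the list were Erbb4 at -0.75 (SE 0.65), Foxp1 at -0.69 (SE 0.80), Cldn3 at 0.05 (SE 0.70), Akt1 at 0.38 (SE 0.25), Id2 at 0.24 (SE 0.26), Cav1 at -0.79 (SE 0.53), Igf1r at -0.18 (SE 0.47) and Ccnd1 at -0.09 (SE 0.28). Igf1r, a receptor of insulin-like growth factor, had probes at -0.94 and 0.22. Gal and Socs1 had too few values to be tested.

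How completely a feature was measured moved with its difference between the groups. The 4231 features with a value on all 32 arrays had a median difference of 0.21, and 71.6% of them were higher in casein-high tumours. Of these, 343 were higher (8.11%) and 49 lower (1.16%) at an unadjusted p under 0.05. The 12277 other features had a median of -0.11, and 43.8% were higher. The 2946 features with a value on 21 to 24 arrays had a median of -0.22. Without subtraction of array medians the median over all features was -0.42 in place of 0.01. Differences smaller than this shift are within what centring moves, and the part of measurement in them was not tested.

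**Figure D3:**
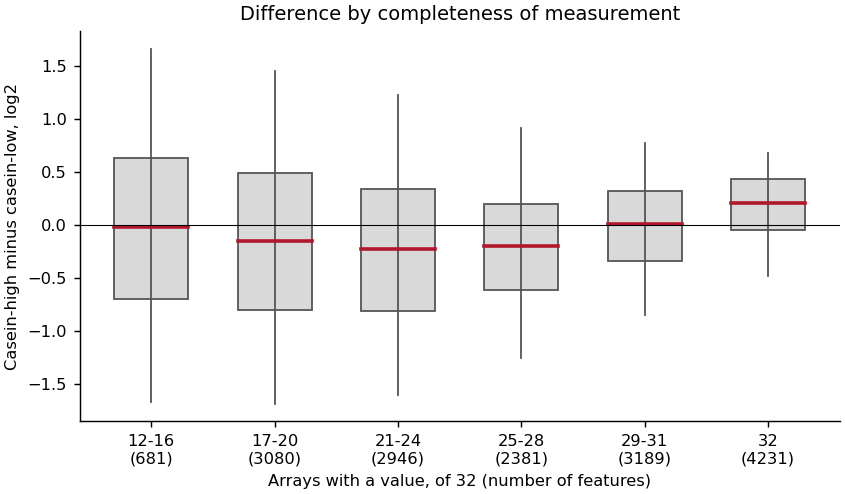
Casein-high minus casein-low difference in log2 (y axis) for features grouped by the number of arrays with a value (x axis, number of features in brackets); red lines are medians, boxes hold the middle 50% and lines run from the 5th to the 95th percentile. Features on all 32 arrays have a median of 0.21, those on 21 to 24 arrays one of -0.22.

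Genes of the mitochondrial respiratory chain had higher means in casein-high tumours in 20 of 21 cases (95.2%), though none passed. Their median difference was 0.48, beside 0.21 over the features on all 32 arrays, of which 71.6% were higher. Of the 21 genes, 9 had an unadjusted p under 0.05, all higher, while 8.11% of the features on all 32 arrays were higher at that p. Uqcrc1, a core subunit of complex III, was at 1.58, 1.33, 1.44, 1.32, 1.32, 0.93, 1.10 and 0.69 in the high tumours in the order of falling Csn2. In the low tumours it was at 0.39, 1.18, 0.68, 0.48, 0.95, 0.58, 0.48 and 0.08. Of the low tumours, 6 lay below all high ones, and 653 and 667 lay among them. The difference was 0.61 (SE 0.22, n = 8 and 8, limma adjusted p = 0.572), and 0.12 without centring. Ndufv1, a subunit of complex I, ran from 0.11 to 1.48, median 0.77, in the high and from -0.68 to 0.72, median 0.04, in the low tumours, a difference of 0.69 (SE 0.25).

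By tumour, the median of the 21 respiratory chain genes was highest at 1.25 in tumour 663, 1.06 in 641 and 0.88 in 660, the 3 tumours with the highest Csn2. It was 0.17 in tumour 655 and 0.15 in 665, on either side of the division. Tumours 653 (0.69) and 639 (0.62) were the highest of the casein-low group, within the range of the casein-high tumours. The median difference was 0.02 within run 1, which has a single casein-low tumour, 0.63 within run 2 and 0.40 within run 3. Without centring it was -0.01, and leaving out 1 tumour at a time it was 0.41 to 0.56.

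**Figure D4:**
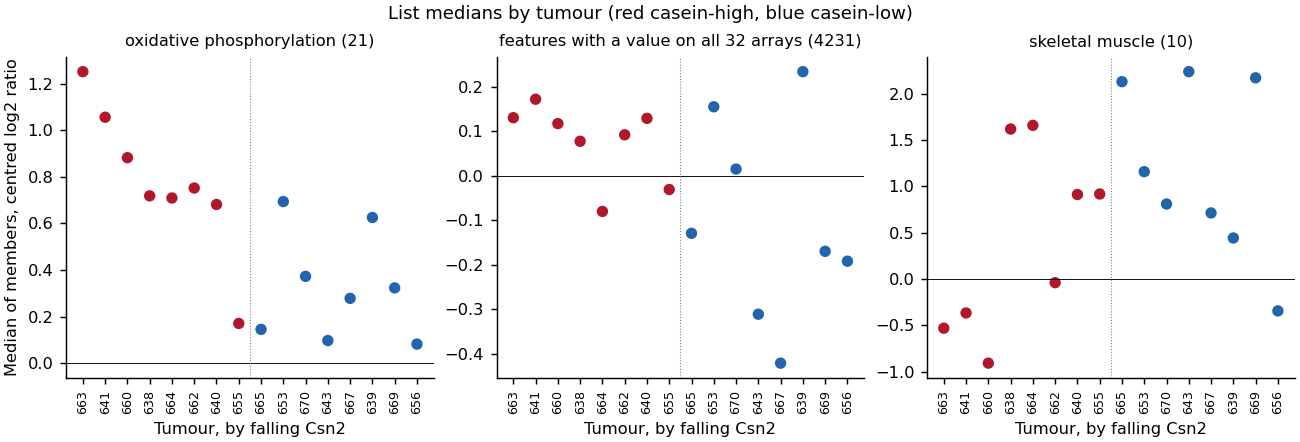
Median centred log2 ratio (y axis) over the respiratory chain genes, all features measured on all 32 arrays, and skeletal muscle genes, for each tumour (x axis, by falling Csn2; red casein-high, blue casein-low). The respiratory chain median falls from 1.25 in tumour 663 to 0.08 in tumour 656, with 653 and 639 above their neighbours.

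Other lists of housekeeping and growth genes had smaller differences of the same sign. Of 24 genes in the list of Myc targets, which also holds Myc itself, 18 had a higher mean in casein-high tumours. The median difference of the list was 0.34, with 5 higher and 1 lower at an unadjusted p under 0.05. Of the features on all 32 arrays, 8.11% were higher and 1.16% lower at that p. Myc had a lower mean in casein-high tumours, a difference of -0.35 (SE 0.29). Ldha, lactate dehydrogenase A, ran from -0.08 to 1.77, median 1.07, in the high and from -2.28 to 1.82, median -0.25, in the low tumours, a difference of 1.08 (SE 0.47). Cct3, a chaperonin subunit, differed by -1.27 (SE 0.41) on 19 of 32 arrays.

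Of 30 genes of the secretory pathway and endoplasmic reticulum, 24 were higher, with a median of 0.26. Pdia3, a disulfide isomerase, differed by 0.74 (SE 0.28) and Kdelr2, a retrieval receptor, by 0.73 (SE 0.32), while Herpud1, of the unfolded protein response, differed by -0.91 (SE 0.45). Medians were 0.29 for 24 proliferation genes, 17 of them higher, and 0.22 for 21 ribosomal protein genes, 19 of them higher. Neither list had a gene at an unadjusted p under 0.05. The secretory, proliferation and ribosomal medians, and the share of proliferation genes that were higher, are near those of the features on all 32 arrays, 0.21 and 71.6%. The 3 medians were down to 0.14 without tumour 638, 0.17 without 667 and 0.14 without 665. Aurka, a mitotic kinase, differed by 1.11 (SE 0.68), and Rpl3 by 0.42 (SE 0.24). Without centring the 4 medians turned negative: -0.15 for Myc targets, -0.19 for the secretory pathway, -0.20 for proliferation and -0.28 for ribosomal proteins. The proliferation and Myc target medians were also negative within run 1, at -0.49 and -0.04.

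Genes of lipid synthesis and uptake were divided evenly, with 14 of 25 higher and a median of 0.03. Me1, malic enzyme, was the single member with an unadjusted p under 0.05, at 1.01, and Fabp3, a fatty acid-binding protein, differed by -1.53 (SE 0.89). Among 11 transporters of the lactating gland 3 were higher, with a median of -0.30. Slc2a1, the glucose transporter GLUT1, was at -3.11 to 0.27 in 6 high tumours and at -0.86 to 2.09 in 8 low tumours, a difference of -1.77 (SE 0.60). Slc3a2 and Slc7a5, the 2 chains of an amino acid transporter, differed by 0.70 and 0.53. Among 8 enzymes of calcium, water and ion handling the median was -0.51, and of 19 genes of involution and acute phase 7 were higher, with a median of -0.24.

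Luminal regulators gave 3 of 11 higher, with a median of -0.17, or -0.01 without tumour 663. Esr1, the oestrogen receptor, differed by -0.82, and Tbx3, a transcription factor of hormone-sensing luminal cells, by -1.51 (SE 0.76). Krt19, a luminal keratin, differed the other way, by 1.99 (SE 0.94), but by -1.56 within run 1. Defence genes of milk and saliva gave 5 of 16 higher, with a median of -0.47, or -0.12 without tumour 667. Pigr, the receptor that carries immunoglobulin A into milk, ran from -4.31 to 1.11, median -1.61, in 7 high and from -1.32 to 2.13, median 0.23, in 8 low tumours, a difference of -1.75 (SE 0.77).

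Markers of other cells had lower means in casein-high tumours in several lists, and were thinly measured. Skeletal muscle genes had a median difference of -1.08, with 9 of 10 lower and 3 at an unadjusted p under 0.05. They had a value on a median of 23 arrays. Of all features on 21 to 24 arrays, 39.2% were higher, with a median difference of -0.22, and 11.2% had an unadjusted p under 0.05. By tumour, the median of the muscle genes was -0.91 to 1.66 in the high and -0.34 to 2.24 in the low tumours. Acta1, skeletal actin, ran from -1.04 to 4.82, median 1.25, in the high and from 1.72 to 5.44, median 3.65, in the low tumours, a difference of -1.89 (SE 0.76). Its difference was 1.55 within run 1, -2.75 within run 2 and -1.36 within run 3, and the list's median was 1.52 within run 1. Without tumour 662 the list's median was -0.69. In the tumours left out Acta1 reached 4.63 to 7.37. The part of muscle RNA in other differences was not tested.

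Neutrophil genes had a median of -1.10, with 6 of 9 lower, and of -0.57 without tumour 663. None of the 9 was measured on all arrays. The share of them that was higher, 33.3%, is near the 39.2% of all features on 21 to 24 arrays. Camp, a granule protein, differed by -2.13 (SE 0.81). The 3 members with higher means were S100a8 at 1.35 (SE 1.06, on 31 arrays), Csf3r at 0.60 and S100a9 at 0.12. Adipocyte genes had a median of -0.71, with 7 of 10 lower, and of -0.42 without tumour 663. The share of them that was higher, 30.0%, is near the 37.2% of all features on 25 to 28 arrays. Lep, leptin, differed by -1.75 (SE 0.64). The 3 members with higher means were Retn at 1.15 (SE 0.89), Ucp1 at 0.31 and Lipe at 0.11, the last 2 measured on all 32 arrays. Medians were -0.08 for macrophage genes (0.07 without tumour 639), -0.42 for genes of T and NK cells (-0.03 without tumour 656), -0.80 for genes of B and plasma cells (-0.50 without 667), -0.14 for endothelial (0.00 in size without 664) and -0.42 for erythroid genes. None of these 7 lists had more than 1 gene at an unadjusted p under 0.05. Interferon and antigen presentation genes had a median of 0.29, with 12 of 17 higher, which was 0.08 without tumour 656 and 0.58 without 669. Epithelial genes had one of 0.06, mesenchymal genes -0.20, matrix genes -0.11, basal genes -0.25, squamous genes -0.59, salivary and lacrimal genes -0.34, stress genes -0.12 and hypoxia and glycolysis genes -0.01.

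**Figure D5:**
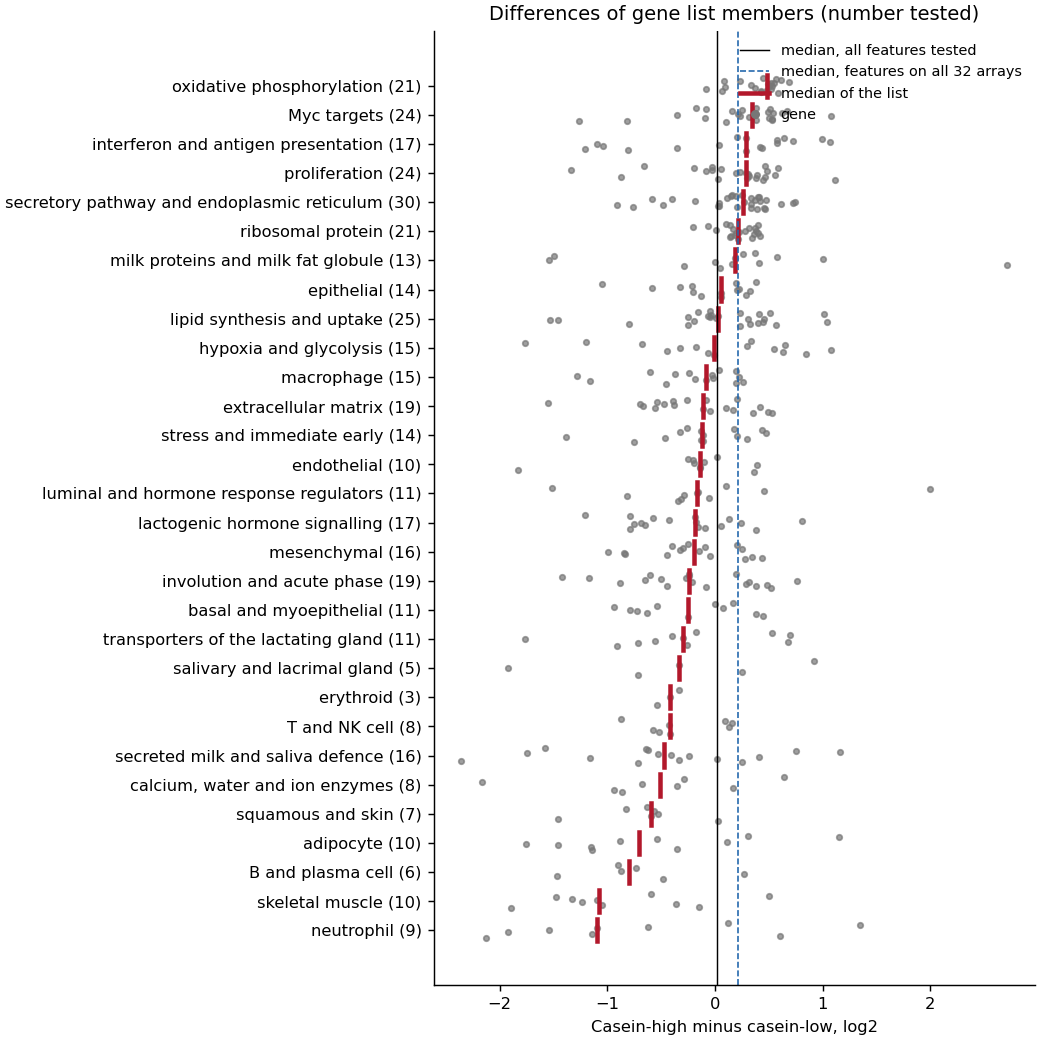
Casein-high minus casein-low difference in log2 (x axis) for the tested genes of each list (y axis, number tested in brackets); grey points are genes, red bars list medians, the black line the median of all features and the dashed blue line that of features on all 32 arrays. Respiratory chain genes (0.48) have the highest list median and neutrophil genes (-1.10, but -0.57 without tumour 663) the lowest, and no gene passed the test.

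The genes whose values over the 16 tumours were most like those of Csn2, by Pearson's r, were Shmt2, Chmp1a and Eif2b1, and none of the 10 most like it was a milk gene. Csn1s1 could not enter, since tumour 663 has no value for it. Wap, Csn1s2a, Csn1s2b, Lalba, Glycam1, Wfdc18, Cidea and Cel also lacked a value in some tumours and could not enter. The milk genes that could were Mfge8, Csn3, Plin2, Ltf, Xdh, Muc1 and Btn1a1. The measure was taken as a description among 7124 genes with a value in every tumour. The median r was 0.089, 45 genes had an r of at least 0.8 and 2 an r of at most -0.8. All values share their arrays with Csn2. By rank (Spearman's rho), Shmt2 (0.924), Fkbp4 (0.918) and Trappc6a (0.909) were the highest of these 10. Shmt2, the mitochondrial enzyme that makes glycine from serine, had the highest r, 0.897. It ran from 0.03 (tumour 655) to 1.04 (663), median 0.50, in the high and from -0.50 (656) to 0.44 (653), median 0.05, in the low tumours.

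Chmp1a, of the membrane-cutting ESCRT machinery, followed at 0.882, Eif2b1, a subunit of a translation initiation factor, at 0.878, and Fkbp4, a co-chaperone of Hsp90 and steroid receptors, at 0.868. The next were Trappc6a (0.862) of vesicle transport, Denr (0.86) of translation, the membrane protein Itm2b (0.859), the histone-binding Anp32b (0.858), the mitochondrial channel Vdac1 (0.855) and Hdgf (0.851). Their differences between the groups were 0.43 to 0.81, with limma adjusted p of 0.572. Without centring they were -0.07 (Denr) to 0.31 (Chmp1a), and that of Shmt2 was 0.02. Fkbp4 was measured on all arrays and was at 1.57, 1.36, 1.55, 0.98, 1.74, 1.32, 1.00 and 1.02 in the high tumours. In the low tumours it was at 0.94, 0.91, 0.83, 0.55, 0.68, 0.90, 0.50 and -0.02, all below the high ones. The difference was 0.65 (SE 0.22), with 0.08 within run 1, 1.14 within run 2 and 0.58 within run 3, and 0.16 without centring.

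In the other direction Nf1, the neurofibromin that restrains Ras, had the lowest r, -0.812. It ran from -2.75 (tumour 663) to -0.31 (638), median -0.96, in the high and from -1.02 (665) to 1.71 (656), median -0.25, in the low tumours, a difference of -1.14 (SE 0.40) that was 0.00 in size within run 1. Pramel3 had an r of -0.804, Pygl, the liver glycogen phosphorylase, -0.79, Triobp, an actin-bundling protein, -0.77, and Bmp2, a secreted growth factor, -0.765.

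Over all features, the casein-high tumours lay wholly above the casein-low ones for 6 (0.0363%) and wholly below for 14 (0.0848%). Of these 20, Fkbp4 and a probe with no gene name were the 2 measured on all 32 arrays. The 25 genes of smallest p among those with a symbol had 6 higher and 19 lower means in casein-high tumours, with limma adjusted p from 0.519 to 0.572. Most were thinly measured: 2 of the 25, Bmp2 and Nufip2, had a value on all arrays, and the other 23 on 15 to 26.

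Bmp2 ran from -1.72 (663) to 0.17 (640), median -0.63, in the high and from 0.09 (653) to 2.07 (643), median 0.59, in the low tumours. The groups overlap by 1 high tumour, 640. The difference was -1.37 (SE 0.35), with -0.85, -1.56 and -1.34 within the runs. It was -0.65 on the arrays not turned and -2.08 on the turned arrays. Nufip2, an RNA-binding partner of the fragile X protein, ran from -0.52 to 0.87, median 0.00, in the high and from -1.67 to -0.17, median -1.20, in the low tumours. Its difference was 1.05 (SE 0.27), with 0.17, 0.95 and 1.29 within the runs. On the arrays not turned it was 0.67 and on the turned arrays 1.44.

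Of the thinly measured genes, Fam241b had the largest difference, 3.54 (SE 0.68, n = 6 and 7), with 1.87 to 3.42 in the high and -2.92 to 1.49 in the low tumours. Cdx2, a transcription factor of gut epithelium, differed by -3.35 (SE 0.72) on 17 arrays, and Epha1, an ephrin receptor of epithelia, by -3.07 (SE 0.70) on 20. Keratin genes Krt6b and Krt88 differed by -2.74 (SE 0.67) and -2.05 (SE 0.52), and Kprp, of the cornified envelope, by 2.29 (SE 0.53). Artn, a ligand of the GDNF family, was at -2.18 to 1.75 in 6 high and 0.70 to 1.84 in 8 low tumours, a difference of -2.03 (SE 0.51). Apln, the peptide apelin, differed by -2.22 (SE 0.57) and Plg, plasminogen, by -2.27 (SE 0.57). The others were Rnf113a2, 1700025C18Rik, 4931440P22Rik, Clstn2, Cabp4, Spata4, 1700060C16Rik, Sprr2j-ps, Rhcg, Meiob, Dixdc1, Saysd1, Npffr2 and Atp8b2, with differences from -3.05 to 2.57.

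With Csn2 taken as a slope over the 16 tumours in place of 2 groups, 4 of 16508 features (0.0242%) had a limma adjusted p of 0.05 or less. Fzd4, a Wnt receptor, fell by 0.59 on the log2 scale for each log2 unit of Csn2 (SE 0.08, adjusted p = 0.0114). It had a value in 14 tumours, on 18 arrays. Olfr10, an olfactory receptor, fell by 0.59 (SE 0.09, adjusted p = 0.0451) and Cabp4, a calcium-binding protein, by 0.57 (SE 0.08, adjusted p = 0.0141). A probe with no gene name rose by 0.51 (SE 0.06, adjusted p = 0.0114). Olfr10 had a value on 20 arrays, Cabp4 on 23 and this probe on 18. All 4 features were thus thinly measured, and some of their tumour means lack an array. The slope of Csn1s1 was 0.77 (SE 0.14, adjusted p = 0.0919) and that of Mfge8 0.25 (SE 0.07, adjusted p = 0.165). Errors of an array enter both Csn2 and the other gene, and their part in the slopes was not tested.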

How the data were processed

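The authors deposited 1 table of 2-colour log2 ratios, a scale read from the values, for 42 arrays of 21 tumours, with background correction, normalization and dye orientation not given in the sources used here. Members, gene lists and tests were chosen with earlier results of these data known. Values at the repeated top of 16.61 were set missing, and 24.1% of cells were blank. Arrays were turned where the mean of Krt8, Hba-a1 and Dbi probes was negative (16 of 32), centred on their median, and averaged per tumour. Of 22800 probes, 16874 had 1 gene symbol in the platform annotation, 134 had several and 5792 had none; probes of 1 symbol were averaged and others kept alone. A feature was tested with a value in at least 6 of 8 tumours of each group, without Csn2. The test was limma 3.58.1 in R 4.3.3 on tumour means, checked on simulated data, with Benjamini-Hochberg adjustment at 0.05. Named genes were the 25 with the smallest p, all milk and lactogenic genes, and members with the largest differences in other lists. The 10 most and 5 least like Csn2 and the features that passed with Csn2 as a slope were named too. The 2 per other list are not all described, and genes counted at an unadjusted p under 0.05 were added after their values were seen. Alternatives changed the sign rule, centring, filters, top values, runs, orientation, division, unit and test, and left out each tumour in turn. Figures used matplotlib 3.10.9.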

Additional observations from a re-analysis of the deposited data

Results flagged for a closer look

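In 252 groups of 4 to 10 tumours, 23 held a tumour far from the others of its group by Dixon's test at the 95% level; chance gives about 1 in 20. Tumour 656, whose 2 arrays did not agree, stood apart for Abcg2 (2.79), Cst10 (5.73), Eng (3.70), Fkbp4 (-0.02), Ifit2 (-2.60) and Tpi1 (4.23) in the casein-low group. In that group tumour 643 stood apart for 1700060C16Rik (3.60) and Bmp2 (2.07), tumour 667 for the matrix gene Fbln1 (3.14) and Prrx1 (-6.40), and tumour 669 for Gbp2 (5.03) and the basal keratin Krt5 (3.94). Tumour 665 stood apart for Krt6b (2.82) and Saysd1 (-3.50), and tumour 639 for Rpl3 (0.67). In the casein-high group tumour 638 stood apart for Csn3 (9.07), tumour 655 for 1700025C18Rik (4.11), and tumour 660 for Clstn2 (-3.16) and Krt6b (-4.31). Tumour 664 stood apart for Cd79a (-5.08) and Ddit3 (-7.90), tumour 662 for Cish (-3.17) and tumour 663 for Elane (-6.30). Most of these genes lack values on some arrays, and the causes were not tested.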

How the results depend on the processing

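The count of 0 features that passed held in 16 other settings and in each of the 16 fits without 1 tumour, where the lowest adjusted p was 0.267 to 0.997 and 0.3 to 0.752, and 315 to 2124 and 1030 to 1755 features had an unadjusted p under 0.05. With Csn2 as a slope the count was 4. For 126 named genes, 3803 differences were recomputed. Of these, 44 moved by more than the spread between tumours, 0 reversed after a call, and 89 changed sign in 30 genes, among them Cldn3 and Glycam1. Under the slope 4 passed the threshold, a count fixed in advance, since every feature that passed there was taken as a named gene. Of 65 genes with a difference of at least 1 in size, 1 changed sign. The 2 orientations were unlike: 315 features had an unadjusted p under 0.05 on the arrays not turned and 1261 on the turned arrays. In that order, Mfge8 (0.86 and 1.15) and Fkbp4 (0.61 and 0.70) kept their sign. Csn3 (1.79 and -0.13), Btn1a1 (0.51 and -0.41) and Muc1 (-0.14 and 0.52) did not. Centring bore on small differences most, since dropping it moved the median of all features from 0.01 to -0.42. No paired analysis was possible because the tumours of the groups share no replicate number beyond the order of their 2 arrays. Leaving out 1 tumour also turned the median of hypoxia and glycolysis genes (-0.21 to 0.25), epithelial genes (-0.15 to 0.20), lipid genes (-0.01 to 0.17) and salivary and lacrimal genes (-0.64 to 0.05). Missing values limit several milk genes to part of the arrays, and the number of tumours limits all tests.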

Other observations

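Car6, a secreted carbonic anhydrase, and Dio1, a thyroid hormone deiodinase, divided the 16 tumours by an order that crossed the casein groups. Both were above 6 in the same 7 tumours, a threshold chosen after the values were seen: casein-high 638, 640 and 641 and casein-low 643, 656, 667 and 669. In these tumours Car6 was at 6.98 to 10.52 and Dio1 at 6.13 to 8.87. In the other 9 tumours Car6 was at -1.54 to 4.20 and Dio1 at -3.82 to 3.72, with tumour 639 the highest for both. The differences between the casein groups were -2.35 (SE 1.80) for Car6 and -2.17 (SE 1.85) for Dio1, and neither passed the test.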
